A study of Hermetia illucens with 24 samples.

Results

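The first response of larvae to aflatoxin B1 was measured as RNA abundance after 6 h on the feed, by comparing 4 AFB1 libraries with 4 control libraries of the same time. These 8 libraries are all those that the labels place at 6 h, of 24 in the series. The animals were black soldier flies (*Hermetia illucens*) in the larval stage, a species farmed on organic waste. They were 5 days old when they got chicken feed that either held AFB1 or did not, so the larvae of both diets were 5 days plus 6 h old. The dose of AFB1 is not given in the sources used here, and the labels name no genotype or strain. Each library came from total RNA of 2 pooled whole larvae, so tissues were not separated, and the labels do not say whether pools came from separate containers. A further 4 libraries, from control larvae of 5 days plus 24 h, served to ask which genes changed on AFB1 feed also differ between younger and older control larvae. The older larvae had also been longer on the chicken feed, so age and time on the feed cannot be told apart.

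Aflatoxin B1 is a toxin of *Aspergillus* moulds that grow on stored grain. In animals that have been studied, cytochrome P450 enzymes turn it into a reactive epoxide that binds DNA and proteins, and glutathione S-transferases can take the epoxide up. Fly larvae moult several times, and many of their genes are switched on and off with feeding and moulting, so the age of the larva is a second source of change in any feeding experiment. The genes of this table carry NCBI LOC numbers. The reference table gives their class and their neighbours, but neither the table nor the labels pair them with product names. The genes are therefore described by level and pattern, and no role is given for them.

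Library totals at 6 h ran from 7774098 to 16801286 counts in controls and from 6826454 to 27136702 on AFB1 feed. LOC119646963, the gene with the most counts, took 8.35% to 14.3% of them in controls and 7.78% to 33.7% on AFB1 feed. Among these and the other shares of counts given for single libraries of 6 h and control 24 h, the widest 95% Wilson interval was 0.0709 percentage points, which covers counting error only. By the share of genes that differed beyond counting error, which also depends on depth, 10 of the 12 libraries were nearest to a library of another group. Each library had more libraries of other groups than of its own to be compared with, which favours such a count in advance. By the correlation of log2 CPM, fewer of the 12 were nearest to another group. AFB1 replicate 2 differed from control 24 h replicate 1 beyond counting error in 32.1% of genes, against 57.3% to 76.3% between pairs of AFB1 6 h libraries and 52.2% to 77.4% between pairs of control 24 h libraries. Control 6 h replicate 2 differed from the control 72 h libraries in 38.4% to 45.5% of genes, and from the other control 6 h libraries in 54.7% to 58.4%. Control 24 h replicate 4 differed from its own group in 73.6% to 77.4% of genes, but from AFB1 6 h replicate 3 in 48.5% and from AFB1 24 h replicate 1 in 43.1%. AFB1 6 h replicate 3 differed from AFB1 24 h libraries in 43.8% to 62.6% and from its own group in 62.2% to 74.4%. Whether any library was mixed up with another cannot be settled from the counts. Every value of control 6 h, AFB1 6 h and control 24 h, and the overlap of the comparisons, thus holds for the libraries as labelled. The counts of called genes are given below with and without single libraries.

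After 6 h on AFB1 feed, 478 genes were lower and 179 higher than in control larvae of the same time, of 10083 tested. That is a background of 6.52% of genes called, 4.74% lower and 1.78% higher, at an adjusted p under 0.05 in edgeR's quasi-likelihood test, while 2663 genes (26.4%) had an unadjusted p under 0.05. The falls were deeper than the rises. The median log2 fold change was -4.53 among the lower genes and 1.70 among the higher ones, beside 0.05 over all genes tested. Of the lower genes 265 fell by at least 16-fold and 173 by at least 64-fold on the fitted scale, whereas 9 and 1 of the higher genes rose that far. Such steep fitted values rest on AFB1 libraries with few counts: 46 of the lower genes had at most 3 counts over the 4 AFB1 libraries together, and 18 had none. Since whole larvae were used, fewer cells of a type and less RNA per cell cannot be told apart.

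**Figure D1:**
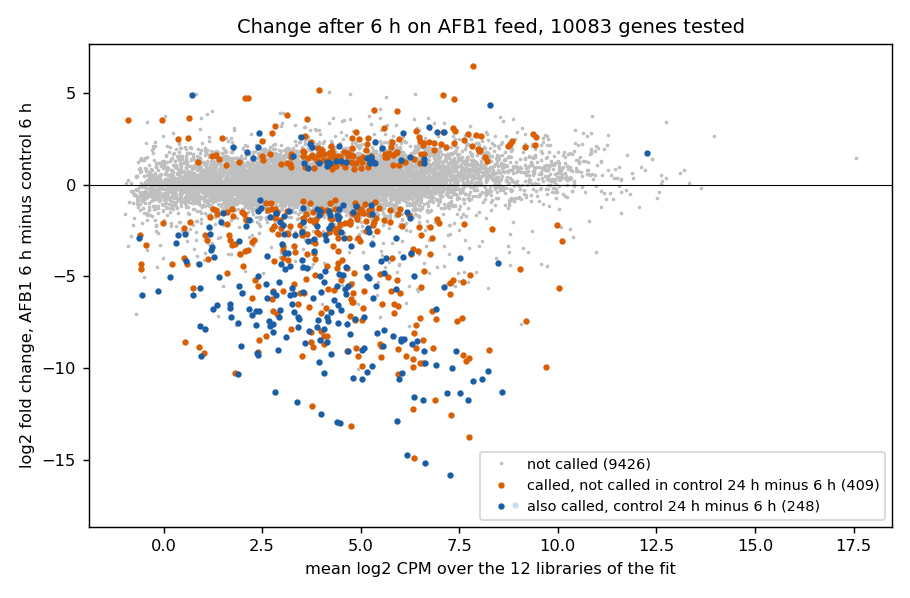
Log2 fold change between AFB1 6 h and control 6 h (vertical axis) against mean log2 CPM over the 12 libraries of the fit (horizontal axis), 1 point per gene tested. Blue points are the 248 called genes that were also called between control 24 h and control 6 h. Orange points are the 409 called genes that did not pass the adjusted test there, and grey points were not called. The called genes below 0 reach much further from the line than those above it.

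Most called genes separated the 2 diets completely. All 4 AFB1 libraries lay below all 4 controls in 456 of the 478 lower genes, and above them in 171 of the 179 higher genes. Over all genes tested, the diets were separated in this way in 1017 genes with AFB1 lower and in 858 with AFB1 higher. The count of called genes depended on single libraries. It was 1186 without AFB1 replicate 2 (493 higher, 693 lower), and 304 without AFB1 replicate 1, 380 without AFB1 replicate 3, and 425, 342 and 416 without control replicate 2, 3 or 4. Control 24 h replicate 4 is in neither diet group of 6 h, but it enters the filter on low counts, the scaling and the estimate of spread. Leaving it out gave 1040, and leaving it out together with AFB1 replicate 2 gave 2411.

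The median level of the lower genes was 39.7 CPM in controls and 1.23 CPM on AFB1 feed, and 226 of them averaged under 1 CPM on AFB1 feed against 1 in controls. Together they took 5.71%, 5.81%, 10.0% and 7.83% of the counts outside LOC119646963 in control replicates 1 to 4. In AFB1 replicates 1 to 4 they took 0.290%, 0.622%, 0.156% and 0.471%. AFB1 replicate 2 kept the most of this RNA and replicate 3 the least. Replicate 2 was the highest of the 4 AFB1 libraries in 258 of the 478 genes, and replicate 3 the lowest in 251. The higher genes went from a median of 12.3 to 37.7 CPM and from 0.737% to 1.03% of counts in control libraries to 2.26% to 3.48% in AFB1 libraries. Replicate 3 was the highest AFB1 library in 115 of these 179 genes and replicate 2 the lowest in 101. These shares were computed on genes chosen by this same contrast, so they describe the size of the response and do not test it.

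Among the called genes whose diets did not overlap, those that fell and took the most counts at 6 h were LOC119657133, LOC119646327 and LOC119647845. LOC119657133 had 2007, 2590, 2359 and 2511 CPM in control replicates 1 to 4 and 193, 417, 232 and 289 CPM in AFB1 replicates 1 to 4. The diets were far apart and the libraries within each lay close together. Its log2 fold change was -3.07 (SE 0.49, adjusted p = 0.00279 in edgeR's quasi-likelihood test), and the call held in every one of the 23 alternative settings. LOC119646327 had 965, 2625, 2810 and 3272 CPM in controls and 0.371, 7.83, 0 and 1.22 CPM on AFB1 feed. This gene went from one of the more abundant messages to almost none, with a log2 fold change of -9.93 (adjusted p = 0.00356 in edgeR, SE 1.64), or -12.00 without AFB1 replicate 2, and it was called in all 23 settings. LOC119647845 had 1147, 1791, 2800 and 2484 CPM in controls and 432, 594, 139 and 614 CPM on AFB1 feed. Its fall was smaller, -2.21 on the log2 scale (adjusted p = 0.0275 in edgeR, SE 0.52), and was not called without control replicate 3 or 4 or AFB1 replicate 1, where the highest adjusted p was 0.0858.

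Under the same condition of no overlap, the genes that rose and took the most counts were LOC119647979, LOC119649866 and LOC119661102. LOC119647979 had 1640, 2003, 1683 and 2019 CPM in controls and 7496, 6049, 7553 and 2725 CPM on AFB1 feed. Control libraries agreed closely, and AFB1 replicate 4 lay nearest to them. Its log2 fold change was 1.70 (adjusted p = 0.0288 in edgeR, SE 0.41), and the call was lost in 8 of 23 settings, among them any setting without 1 control or without AFB1 replicate 1 or 3 (adjusted p up to 0.0926), the fit of all 24 libraries (0.0745) and the fit with the replicate number as a block (0.101). LOC119661102 had 206, 183, 221 and 369 CPM in controls and 1041, 542, 1880 and 803 CPM on AFB1 feed. It rose by 2.12 on the log2 scale (adjusted p = 0.0117 in edgeR, SE 0.43) and was the only one of the 8 higher genes named here that was called in all 23 settings. LOC119649866 had 347, 78.2, 79.9 and 239 CPM in controls and 1068, 422, 3020 and 551 CPM on AFB1 feed. Its log2 fold change of 2.77 (adjusted p = 0.0402 in edgeR, SE 0.71) was 1.83 without AFB1 replicate 3, where it was not called. The call was also lost without control replicate 2, 3 or 4, AFB1 replicate 1, or control 24 h replicate 1 or 2, and with only the 2 diets fitted (adjusted p = 0.0773 in edgeR), and the highest adjusted p among settings without 1 library of 6 h was 0.12.

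**Figure D2:**
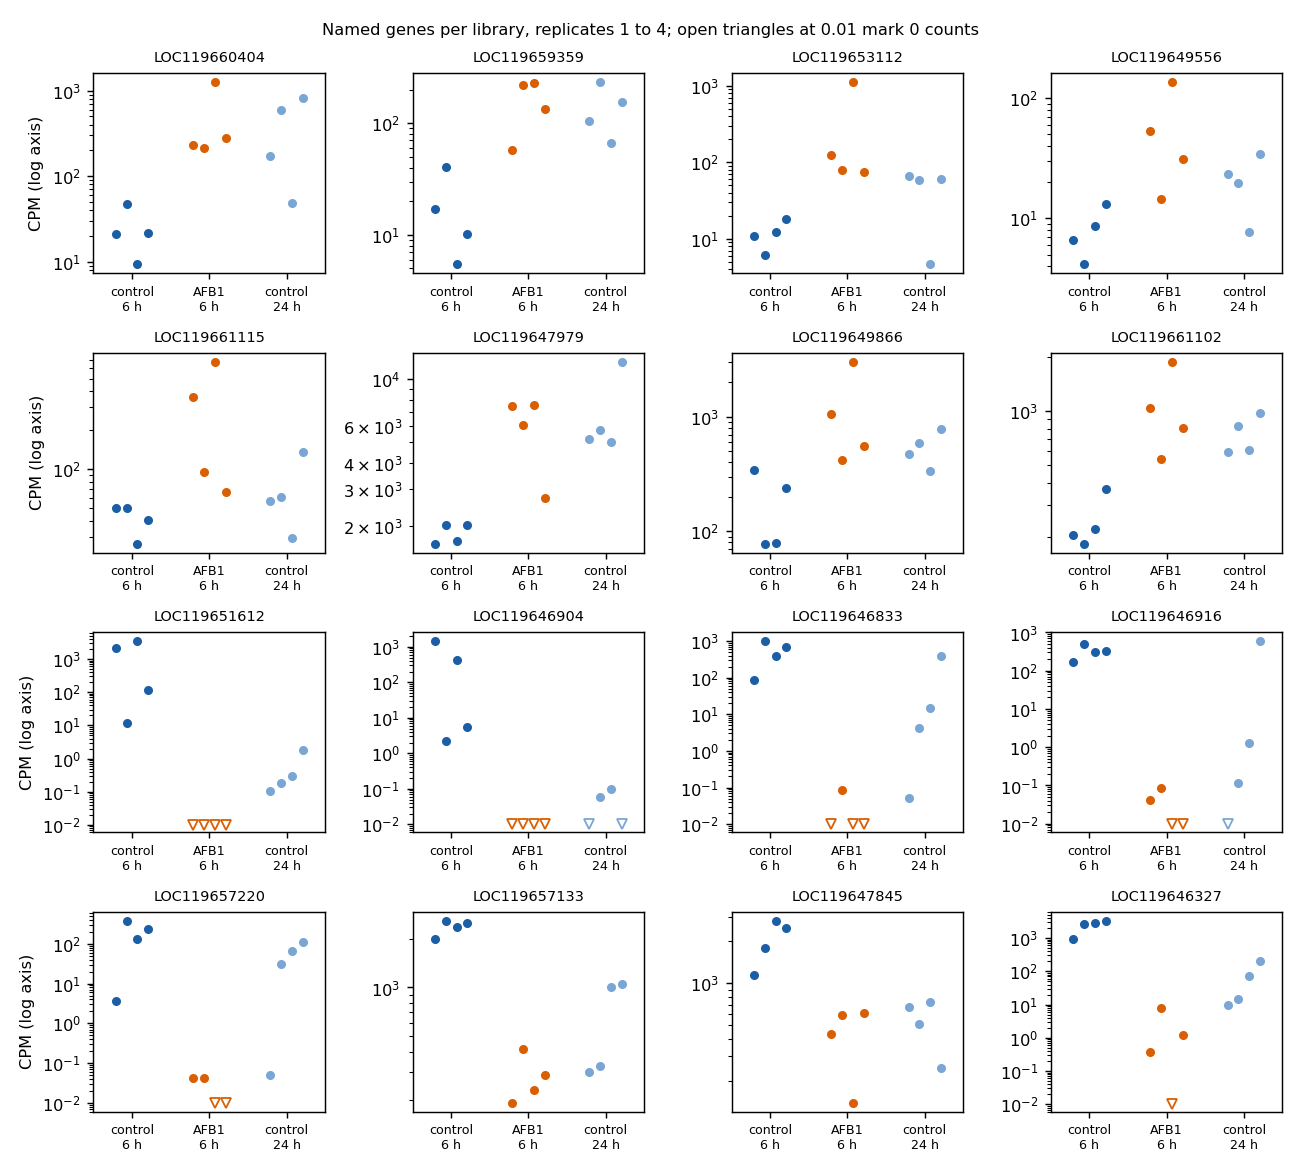
CPM on a log axis for the 16 genes named by the rule, with 1 point per library for control 6 h, AFB1 6 h and control 24 h (replicates 1 to 4 from left to right) and open triangles for 0 counts. In each panel the 4 AFB1 points lie wholly above or wholly below the 4 control 6 h points, while the control 24 h points lie on the AFB1 side, in between, or, as LOC119646916 replicate 4 at 585 CPM, at control level.

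The next question was whether the genes changed on AFB1 feed also differed between control larvae of 24 and 6 h. In that comparison 233 genes were lower and 59 higher at 24 h, a background of 2.90% called, 2.31% lower and 0.585% higher. Both comparisons use the same control 6 h libraries, so a chance deviation of these moves both the same way, and the overlap is given only as a count. Of the 657 genes changed on AFB1 feed, 248 (37.7%) also differed between the control ages and 409 did not pass there. The 248 genes were 211 of the 478 lower genes (44.1%) and 37 of the 179 higher genes (20.7%). All 248 had the same direction in both comparisons, and no gene was called in opposite directions. Seen from the control ages, 90.6% of the genes lower at 24 h were also lower on AFB1 feed, and 62.7% of those higher at 24 h were also higher. The overlap count of 248 fell to 155 when control 6 h replicate 3 was omitted and to 131 when control 24 h replicate 2 was. The count between the control ages itself, 292, was 168 without control 6 h replicate 3. Omitting control 24 h replicate 2 made it 137 and omitting replicate 3 made it 173.

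A gene that did not pass between the control ages need not be steady there. Of the 409, 302 had an unadjusted p under 0.05 in control 24 h minus control 6 h, which 1796 of all genes tested (17.8%) had. That left 107 genes, 88 lower and 19 higher on AFB1 feed, with an unadjusted p of 0.05 or over between the control ages. The medians of these groups are a description, since the p between the control ages defines them. The 211 lower genes called in both comparisons had a median log2 fold change of -5.86 on AFB1 feed and -4.73 between the control ages. The 267 lower genes not called between the ages had -3.50 and -1.53, and the 88 among them with an unadjusted p of 0.05 or over had -5.79 and -1.13. For the higher genes these pairs were 1.52 and 1.58 for the 37, 1.71 and 1.28 for the 142 and 1.82 and 0.90 for the 19.

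**Figure D3:**
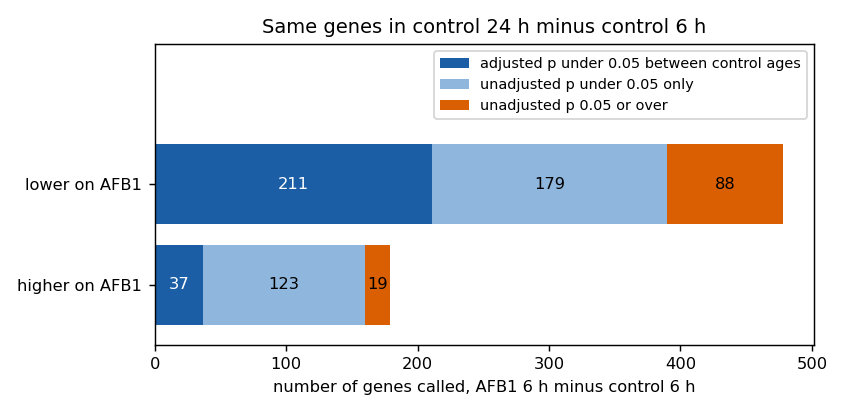
Number of genes called in AFB1 6 h minus control 6 h (horizontal axis), lower genes above and higher genes below, divided by what the same genes did in control 24 h minus control 6 h. Of the lower genes 211 passed the adjusted test there, 179 only the unadjusted one and 88 neither; of the higher genes these were 37, 123 and 19.

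The difference between the 2 changes is itself a contrast, AFB1 6 h minus control 24 h, in which the control 6 h libraries cancel. No gene passed it in edgeR's quasi-likelihood test (lowest adjusted p = 0.322), and 633 genes (6.28%) had an unadjusted p under 0.05. Limma voom also called 0 genes and DESeq2 171. With all 24 libraries fitted it was 29 in edgeR, without AFB1 6 h replicate 2 it was 4 and without control 24 h replicate 1 it was 39. Leaving out both of these libraries, which were the pair nearest to each other, gave 116. Of the 478 lower genes, 188 were lower than in control 24 h at an unadjusted p under 0.05, and 13 of the 179 higher genes were higher. Both lists were chosen with the AFB1 6 h libraries that also enter this contrast. The same direction was thus favoured in advance, and these 2 counts test nothing. For the genes that did not pass between the control ages, a change on AFB1 feed beyond that between control 24 h and control 6 h was thus not shown for any single gene in the fit of 12 libraries.

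LOC119651612 and LOC119646904 showed the largest falls shared with older controls. LOC119651612 had 2187, 11.7, 3425 and 116 CPM in control 6 h replicates 1 to 4, 0 counts in all 4 AFB1 libraries, and 0.103, 0.179, 0.303 and 1.76 CPM in control 24 h replicates 1 to 4. The control libraries of 6 h differed widely among themselves, and all lay above every library of the other 2 groups. Summed over each group, the level on AFB1 feed was at least 38000-fold lower than in control 6 h, or at least 21000-fold without control replicate 3. The floor was 3 counts over the AFB1 group. Neither bound holds for control replicate 2 or 4 alone, which had 90 and 1621 of the 116075 control 6 h counts. The adjusted p in edgeR was 0.00755 on AFB1 feed and 0.0251 between the control ages, and the gene was called on AFB1 feed in all 23 settings. LOC119646904 had 1427, 2.21, 416 and 5.45 CPM in control 6 h, 0 counts in all AFB1 libraries and at most 0.101 CPM in control 24 h. Summed over each group and with the same floor, it was at least 11500-fold lower on AFB1 feed, or at least 4260-fold without control replicate 1. Neither bound holds for control replicate 2 or 4 alone, which had 17 and 76 of the 35135 control 6 h counts. The adjusted p in edgeR was 0.0167 on AFB1 feed and 0.031 between the ages. The call of LOC119646904 on AFB1 feed was lost without AFB1 replicate 1 (adjusted p = 0.051 in edgeR), with only the 2 diets fitted (0.06) and in limma voom (0.0966).

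The rises shared with older controls were largest for LOC119660404 and LOC119659359, which are neighbours on the chromosome. LOC119660404 had 21.0, 47.6, 9.37 and 21.6 CPM in control 6 h, 230, 212, 1252 and 279 CPM on AFB1 feed, and 173, 595, 48.1 and 830 CPM in control 24 h. Its log2 fold change was 4.31 on AFB1 feed (adjusted p = 0.0226 in edgeR, SE 0.97) and 4.05 between the control ages (SE 0.96, adjusted p = 0.0443). Without AFB1 replicate 3 the first was 3.27 and was not called, nor was it without control replicate 1, 3 or 4. LOC119659359 had 17.0, 40.7, 5.47 and 10.1 CPM in control 6 h, 57.8, 219, 227 and 134 CPM on AFB1 feed, and 105, 232, 66.6 and 155 CPM in control 24 h. The AFB1 and control 24 h libraries covered nearly the same range. Its log2 fold changes were 3.12 (adjusted p = 0.0193 in edgeR, SE 0.68) and 2.93 (SE 0.68, adjusted p = 0.04). The first was 3.83 without control replicate 2, and was not called without control replicate 3 or 4 (adjusted p up to 0.0617).

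Among the lower genes with an unadjusted p over 0.05 between the control ages, LOC119646833, LOC119646916 and LOC119657220 fell furthest. LOC119646833 had 85.1, 983, 392 and 706 CPM in control 6 h and 2 counts in all over the AFB1 libraries, both in replicate 2. Control 24 h had 0.0515, 4.24, 14.8 and 391 CPM, so only replicate 4 of the older controls kept a level like that of the younger ones. The ratio of control 6 h to AFB1 was 13500 (exact 95% interval 3740 to 112000), and 11200 without control replicate 2. LOC119646916 had 170, 496, 300.1 and 334 CPM in control 6 h, 3 counts over the AFB1 libraries, and 0, 0.12, 1.26 and 585 CPM in control 24 h. Again a single library of the older controls carried the gene. The ratio was 5930 (exact 95% interval 2030 to 28700), and the call was lost without control replicate 2, 3 or 4 or AFB1 replicate 1, 3 or 4, with adjusted p up to 0.114 in edgeR. LOC119657220 had 3.74, 380, 130 and 243 CPM in control 6 h, 2 counts over the AFB1 libraries, and 0.0515, 31.9, 65.2 and 112 CPM in control 24 h. Its ratio was 4530 (exact 95% interval 1250 to 37400), and 3540 without control replicate 2. The interval covers counting error only. It does not hold for control replicate 1 alone, which had 68 of the 9220 control 6 h counts. Adjusted p-values in edgeR on AFB1 feed were 0.0102, 0.0356 and 0.00696 for these genes, and between the control ages 0.452, 0.778 and 0.489. Limma voom did not call LOC119646833 (adjusted p = 0.0547) or LOC119657220 (adjusted p = 0.156) on AFB1 feed. For AFB1 6 h minus control 24 h they were lower with unadjusted p of 0.000763, 0.00271 and 0.00039 in edgeR, which did not pass the adjustment (adjusted p of 0.322, 0.353 and 0.322). The genes were chosen with the same AFB1 libraries, which favours low values in this contrast.

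Among the higher genes with an unadjusted p over 0.05 between the control ages, the largest rises were those of LOC119653112, LOC119649556 and LOC119661115. LOC119653112 had 11.0, 6.11, 12.2 and 17.9 CPM in control 6 h, 124, 78.9, 1112 and 74.5 CPM on AFB1 feed, and 66.0, 58.4, 4.65 and 60.9 CPM in control 24 h. The other 3 older controls came close to the lower AFB1 libraries, while replicate 3 lay below the younger controls. The rise was 4.88 on the log2 scale (adjusted p = 0.0223 in edgeR, SE 1.10), and 2.93 without AFB1 replicate 3. The call was lost when control replicate 1, 2, 3 or 4 was left out. LOC119649556 had 4.16 to 13.2 CPM in control 6 h, 53.9, 14.5, 136 and 31.4 CPM on AFB1 feed and 7.73 to 34.2 CPM in control 24 h. The rise of 2.85 on the log2 scale (adjusted p = 0.0287 in edgeR, SE 0.68) was 1.98 without AFB1 replicate 3 and was not called there, nor without AFB1 replicate 1 or control replicate 1, 2 or 3. LOC119661115 had 26.7 to 50.6 CPM in control 6 h, 361, 95.1, 673 and 66.4 CPM on AFB1 feed, and 29.4 to 135 CPM in control 24 h. A log2 fold change of 2.83 (adjusted p = 0.0402 in edgeR, SE 0.73) was 2.02 without AFB1 replicate 3. The call was lost in 12 of 23 settings, including those without any 1 control of 6 h, AFB1 replicate 1 or 3, or control 24 h replicate 1 or 2, as well as limma voom and the fit of the 2 diets alone. AFB1 replicate 3 had the highest value for each of these 3 genes.

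Genes that fell were often neighbours on the chromosome. Of the 478 lower genes, 81 (16.9%) were followed along the chromosome by a tested gene that was also called lower, where 4.75% of the placed genes were called lower. Among the higher genes 12 of 179 (6.70%) had a higher next neighbour, beside 1.78%. There were 13 runs of at least 3 neighbouring lower genes, with 62 genes in all, and 2 runs of 3 higher genes. Neighbouring genes can be copies of one another, and the counting may have split the reads of near-identical copies among them, so members of a run need not be independent measurements.

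The 2 longest runs were singled out after their values were seen, and every gene of both had a lower fitted level in control 24 h than in control 6 h. The first held 11 genes from LOC119651404 to LOC119653118. Their mean levels ran from 19.3 to 802 CPM in control 6 h, from 0 to 4.06 CPM on AFB1 feed and from 0.0129 to 13.5 CPM in control 24 h, and 10 of the 11 were called lower between the control ages as well. LOC119651315, the member with the highest level in controls, averaged 802 ± 244 CPM (SD, n = 4) in control 6 h, 0.626 ± 0.574 CPM on AFB1 feed and 0.465 ± 0.374 CPM in control 24 h. LOC119651540 went from 359 ± 170 CPM (SD, n = 4) to 0.371 ± 0.0857 CPM on AFB1 feed and 1.28 ± 0.765 CPM in control 24 h. Their adjusted p-values on AFB1 feed were 5.17e-05 and 1.73e-05 in edgeR. The second run held 10 genes from LOC119659576 to LOC119659283. Here the means ran from 9.95 to 243 CPM in control 6 h, from 0 to 10.2 CPM on AFB1 feed and from 0.248 to 80.6 CPM in control 24 h, and 1 of the 10 was called between the control ages, while 7 had an unadjusted p under 0.05 there. The median log2 fold change between the ages was -8.41 in the first run and -2.73 in the second, and a difference between the runs was not tested. LOC119659263, the member of the second run with the smallest change between the ages, averaged 142 ± 58.1 CPM (SD, n = 4) in control 6 h, 10.2 ± 14.4 CPM on AFB1 feed and 80.6 ± 57.2 CPM in control 24 h. Its adjusted p in edgeR was 0.0398 on AFB1 feed, and its unadjusted p between the control ages was 0.366. LOC119659576, by contrast, had a log2 fold change of -5.91 between the ages with an unadjusted p of 0.00161. In all 21 genes the 2 diets did not overlap at 6 h, as in 456 of the 478 lower genes. Of the 10083 genes tested, 1017 were separated in this way with AFB1 lower. LOC119646833, LOC119646916 and LOC119646904, described above, also lie together in a run of 5 lower genes.

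**Figure D4:**
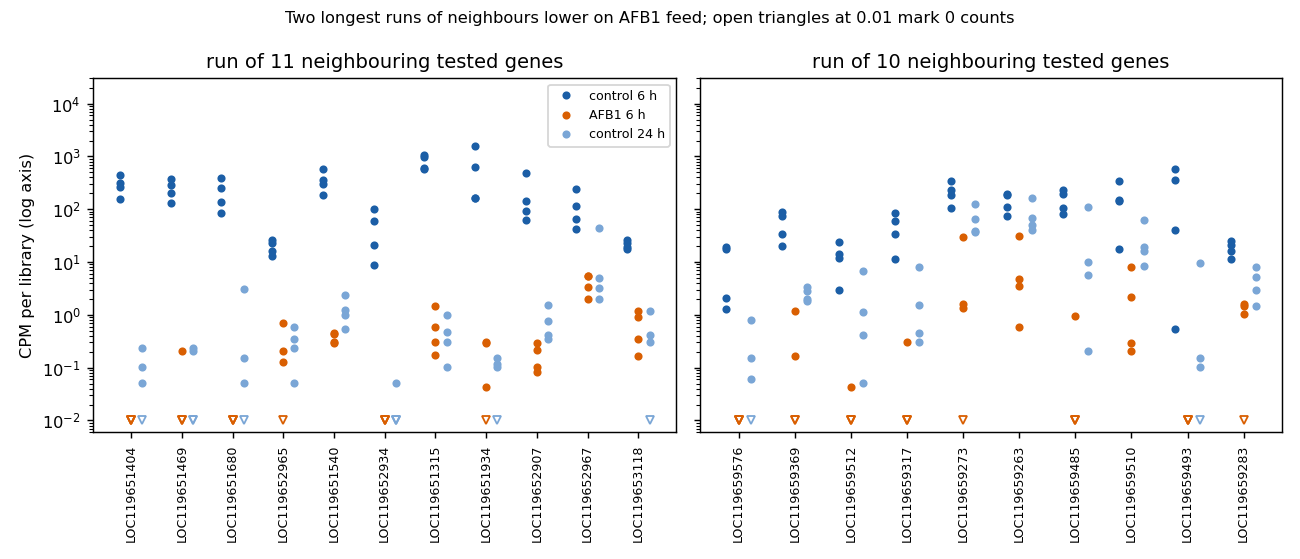
CPM on a log axis for the genes of the 2 longest runs of neighbouring genes that were lower on AFB1 feed, in chromosome order from left to right, with 1 point per library and open triangles for 0 counts. In the run of 11 genes control 24 h libraries lie as low as AFB1 libraries for most genes, and in the run of 10 they often lie between the 2 diets of 6 h.

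Called genes were nearly all protein-coding, as were the genes tested (9926 of 10083). Of the protein-coding genes 178 were higher and 477 lower (6.60%, beside 6.52% of all genes tested). Of 148 long non-coding RNA genes 1 was higher and 1 lower, LOC119659687 and LOC119652797. An unadjusted p under 0.05 in edgeR was found for 23 of the 148, beside 26.4% of all genes tested. LOC119659687 had 283, 180, 319 and 132 CPM in controls and 2802, 1545, 923 and 145 CPM on AFB1 feed, so that AFB1 replicate 4 lay among the controls. The fitted log2 fold change was 2.57 (adjusted p = 0.0478 in edgeR, SE 0.69). Called genes were found at all levels: the share called was 3.78% under a mean of 1 log2 CPM, 5.86% from 1 to 4, 7.93% from 4 to 7 and 6.04% over 7.

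The genes of mitochondrial DNA, for proteins of oxidative phosphorylation, did not pass the test at 6 h. Of the 13 listed, 12 were tested, none was called in edgeR, and 3 had an unadjusted p under 0.05, beside 26.4% of all genes. Their median log2 fold change was 0.81. DESeq2 called 2 of the 12, *ND5* and *ATP6*, beside 1673 of all 10083 genes, and limma voom none. *ND5*, a subunit of complex I, had 894, 1048, 1150 and 1042 CPM in controls and 4035, 1702, 11200 and 1375 CPM on AFB1 feed. The diets did not overlap, and the AFB1 libraries differed widely among themselves. The log2 fold change of 2.15 (SE 0.69) had an adjusted p of 0.0814 in edgeR. It was 1.16 without AFB1 replicate 3, and it was called without AFB1 replicate 2 (adjusted p = 0.0446) or control 24 h replicate 4 (adjusted p = 0.0421). *ATP6*, a subunit of ATP synthase, had 2.31, 4.42, 1.42 and 3.73 CPM in controls and 34.7, 15.7, 61.7 and 7.61 CPM on AFB1 feed, with a log2 fold change of 3.34 (adjusted p = 0.0919 in edgeR, SE 1.12). Its adjusted p was 0.00984 without control 24 h replicate 4 and 0.0231 with only the 8 libraries of 6 h. LOC119646963 had 64470 to 145000 CPM in controls and 66120 to 666500 CPM on AFB1 feed, with the highest value in AFB1 replicate 3, and its log2 fold change of 1.46 (SE 0.90) had an adjusted p of 0.314 in edgeR.

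In the controls, the summed shares of both lists at 72 h lay within the range of the control 6 h libraries, while several named genes did not. The 478 lower genes took 0.673% to 1.86% of counts outside LOC119646963 in control 24 h libraries, but 9.19% to 9.53% in control 72 h libraries. On AFB1 feed they took 0.202% to 0.503% at 24 h. At 72 h on AFB1 feed they took 0.417%, 6.01%, 3.05% and 0.458% in replicates 1 to 4, so that replicates 2 and 3 stood far above the other pair. The 179 higher genes took 1.81% to 2.75% in control 24 h, 0.828% to 0.984% in control 72 h, 2.10% to 3.14% in AFB1 24 h and 0.668% to 0.989% in AFB1 72 h libraries. For both lists the control 24 h libraries did not overlap the control libraries of 6 or 72 h. Both lists were chosen with the control 6 h libraries, which favours a gap between these and control 24 h. The gap is therefore a description and no test of a change in controls. The 4 control 72 h libraries differed from one another in only 2.05% to 18.9% of genes beyond counting error, against 32.0% to 77.4% in the other groups, so they may not be separate samples and their narrow range says little of the spread between larvae.

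**Figure D5:**
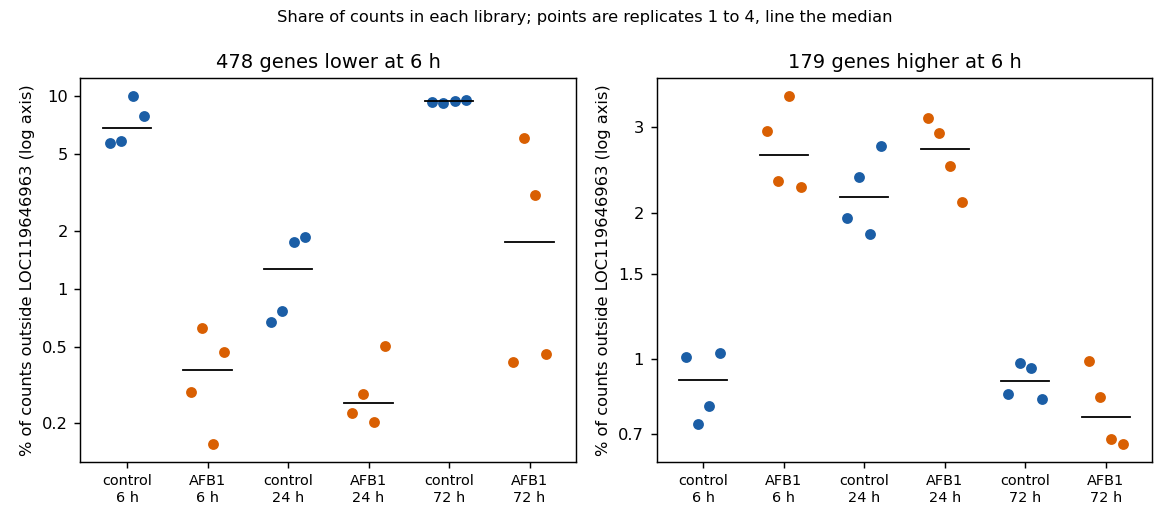
Share of counts outside LOC119646963 (percent, log axis) taken by the 478 genes lower at 6 h (left) and the 179 genes higher at 6 h (right) in every library, blue for control and orange for AFB1 feed, with the median of each group as a line. The lower genes stand at 5.71% to 10.0% in control 6 h and 9.19% to 9.53% in control 72 h, and below 2% in AFB1 6 h, control 24 h and AFB1 24 h. Both lists were chosen with the libraries of 6 h, which favours a gap between control 6 h and AFB1 6 h or control 24 h.

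Single genes are given here on CPM scaled over all 24 libraries. Several lay above their whole control 6 h range in control 72 h. LOC119646327 had 812 to 2810 CPM in control 6 h, 7.71 to 169 in control 24 h and 4340 to 4550 in control 72 h. On AFB1 feed it had 0 to 6.37 CPM at 6 h, 0 to 2.04 at 24 h and 0.482 to 584 at 72 h. LOC119657220 had 3.14 to 314 CPM in control 6 h, 0.0417 to 90.5 in control 24 h and 524 to 637 in control 72 h, and it did not exceed 0.345 CPM in any AFB1 library of the 3 times. LOC119646833 had 71.6 to 812 CPM in control 6 h and 968 to 1130 in control 72 h, and it stayed at or under 3.35 CPM in all AFB1 libraries. These 2 genes remained near 0 on AFB1 feed through 72 h, whereas LOC119651612 reached 736 CPM in 1 AFB1 72 h library after 0 counts in all AFB1 libraries of 6 and 24 h. LOC119660404 had 8.06 to 39.3 CPM in control 6 h and 80.1 to 94.1 in control 72 h, and LOC119659359 had 4.70 to 33.6 and 54.2 to 73.4. LOC119647979, higher on AFB1 feed at 6 h, had 2430 to 2510 CPM in control 72 h and 6.89 to 95.4 CPM in AFB1 72 h, so its level on AFB1 feed lay above control at 6 h and below it at 72 h.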

How the data were processed

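Counts were taken as deposited: the authors' table gives, for each library, the raw counts of reads on each gene. Per the submitters' processing notes reads were aligned with STAR. The sources used here do not give its version, the genome build, the counting tool or the strand setting. The authors used DESeq2, per the series' design text. Of 15197 lines, 1 was empty and 9 named no gene (0.0206% to 0.0431% of counts), which left 15187 genes. All 15130 LOC numbers matched the RefSeq table of GCF_905115235.1, used for gene class and neighbours only.

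The 12 libraries of control 6 h, AFB1 6 h and control 24 h entered 1 edgeR 4.0.16 model in R 4.3.3, with 1 coefficient per group, filterByExpr (10083 genes kept), TMM scaling, robust quasi-likelihood tests, two-sided, and Benjamini-Hochberg adjustment. Only the groups that the comparisons use were fitted. Of the groups left out, control 72 h has nearly identical libraries, which would lower the estimated spread. The common biological coefficient of variation was 0.55, with 9 residual degrees of freedom. CPM use the scaled library sizes. The SE is the log2 fold change over the square root of F. Alternatives used limma 3.58.1 and DESeq2 1.42.0. The procedure was also run on simulated counts, drawn independently for each gene and library. The outcome is not given here, and such counts do not hold the likeness between libraries of different groups seen in these data.

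Members and lists were chosen with earlier results of these data known. Named genes were, among called genes with a mean log2 CPM of at least 1 and no overlap of the diets, in each direction: the 2 largest changes also called between the control ages in the same direction, 2 in the opposite direction (none existed), the 3 largest with an unadjusted p over 0.05 there, and the 3 of highest CPM, plus the mitochondrial protein genes and LOC119646963. Gene lists that need product names could not be formed, and the sequence descriptions had no sequences to use. P-values rest on the spread between pools of 2 larvae. Intervals and floors cover counting error only.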

Additional observations from a re-analysis of the deposited data

Results flagged for a closer look

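In groups of 4 libraries, 1 library was counted as far from the others when its gap to the nearest of them exceeded Dixon's 95% critical share of the group's range. This held for 20 of 99 groups of values. Chance gives about 1 in 20 for independent normal values. CPM need not be normal and the groups share libraries, so the 20 cannot be set against that rate. Most were in control 24 h replicate 4, which was the highest of its group for LOC119646963 (651100 CPM against 60180 to 69220 in the other 3; 36.8% of counts), LOC119647979 (12130 CPM), LOC119651612 (1.76 CPM), LOC119646833 (391 CPM) and LOC119646916 (585 CPM). It was also highest for the mitochondrial genes *ATP8* (11920 CPM), *ND1* (15650), *ND4* (13310), *ND4L* (2607), *ND5* (3618), *COX1* (2935), *CYTB* (2837) and *ATP6* (77.7). In control 24 h replicate 3, LOC119653112 was lowest, at 4.65 CPM against 58.4 to 66.0 in the other 3.

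AFB1 6 h replicate 3 stood above the other AFB1 libraries for LOC119660404 (1252 CPM against 212 to 279), LOC119653112 (1112 CPM against 74.5 to 124) and *CYTB* (4671 CPM against 162 to 705). AFB1 6 h replicate 2 was the highest for LOC119646833, at 0.087 CPM (2 counts) against 0 in the other 3, and for LOC119646327, at 7.83 CPM against 0 to 1.22.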

How the results depend on the processing

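Counts called depended on the fit. With all 24 libraries in 1 fit, 1450 genes changed on AFB1 feed at 6 h (663 higher, 787 lower), 509 between the control ages, 420 in both, and 29 between AFB1 6 h and control 24 h. DESeq2 gave 1673 (784 and 889), 788, 582 and 171. At an adjusted p under 0.01 they were 250 (12 and 238), 126 and 122. With only the 2 groups of a contrast fitted, the higher genes were 92 and 71.7% of the 657 called genes remained. In the 12-library fit, 550 of the 657 had an unadjusted p under 0.05 between the control ages. Leaving out 1 library gave 304 to 1186 called genes, 31 to 493 higher and 268 to 693 lower, 137 to 352 between the control ages, 131 to 272 in both, and 0 to 39 between AFB1 6 h and control 24 h. Chosen after seeing the data, the fit without AFB1 6 h replicate 2 and control 24 h replicate 1 gave 1038 called genes (384 higher) and 116 between AFB1 6 h and control 24 h. Without AFB1 6 h replicate 2 and control 24 h replicate 4 these were 2411 (1183 higher, 1228 lower) and 9. The cause was not tested. No fit called a gene in opposite directions in both comparisons. Limma voom, RLE scaling, no filter on low counts and leaving out LOC119646963 moved no count by over 1.5 times, nor did leaving out AFB1 6 h replicate 3 and control 24 h replicate 4 together.

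With the replicate number as a block, 351 genes were called (32 higher), 166 between the control ages and 152 in both. The labels give the libraries a shared number and do not say whether they were paired. Same-numbered libraries of control 6 h and AFB1 6 h had correlations of their deviations between -0.226 and 0.232, and 1 of the 4 matched best with its own number. For control 6 h and control 24 h these correlations lay between -0.178 and 0.431, and replicates 1 and 3 matched best with their own number. For AFB1 6 h and control 24 h they lay between -0.555 and 0.111, and only replicate 1 did so.

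Among the named genes, 3 alternative values changed sign. All were of *ATP8*, which was not called: its 0.06 became -0.05 when control replicate 1 was omitted, -0.06 for control replicate 3 and -0.20 for AFB1 replicate 4, within a leave-one-out range of -0.20 to 0.19. The call was lost in 64 alternative values, gained in 15 and held on its side in 583. DESeq2 gave no adjusted p for LOC119653112. Depth limits the falls, since 46 lower genes had at most 3 counts on AFB1 feed.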
